A study of Mus musculus with 8 samples.

Results

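Myogenic regulators and satellite cell genes of skeletal muscle were examined in cells isolated from the liver of WT and LRP1 eKO mice as endothelial cells (ECs). 10 genes had been listed by symbol, namely Myod1, Myog, Myf5, Myf6, Pax3, Pax7, Mef2c, Megf10, Chrnd and Cdh15, and their rows were taken from a table of 22520 protein-coding genes by an exact match of the gene symbol. 9 of the 10 genes were found, and Cdh15 was not analysed here. 7 of these 9 had a mean signal of at least 0.1 over all libraries and entered the fit across 13991 genes. Pax3 and Pax7 were below that level, and their tests come from a fit of the 17959 genes with a signal above 0 in at least 1 library.

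The mRNA-seq screen compared liver ECs of an inducible, EC-specific knockout of the lipoprotein receptor LRP1 with those of littermate controls, to find genes that change when ECs lose LRP1. 4 libraries came from LRP1 eKO mice (LRP1 f/f; Cdh5-CreER+/-) and 4 from WT mice (LRP1 f/f; Cdh5-CreER-/-), all C57BL/6 and at postnatal day 14, so that both groups carried the floxed Lrp1 alleles. CreER is a Cre recombinase that acts only when its ligand is given, and the Cdh5 promoter that drove it is active in ECs. The time of induction is not given in the sources used here. WT mice carried no CreER, so effects of the recombinase and effects of losing Lrp1 cannot be told apart. Per the study's methods, ECs were captured with beads that carry an antibody to PECAM-1, and the sample labels name the cells liver microvesicular cells. The labels number the libraries of a group from 1 to 4 and do not say that each came from its own mouse, so p-values measure only the spread between these libraries, which may be technical.

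Skeletal muscle forms when precursor cells are driven into the muscle lineage by the MyoD family of basic helix-loop-helix factors, MyoD, Myf5, myogenin and Mrf4, which pair with E proteins and bind DNA at E-box motifs. Myf5 and MyoD act in committed myoblasts, while myogenin and Mrf4 act as myoblasts stop dividing, fuse and mature, and MEF2 factors work beside them on muscle promoters. Satellite cells, the stem cells that lie on adult muscle fibres, are marked by the paired box factor Pax7, and neither these cells nor myoblasts are known as residents of the liver vasculature.

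Lrp1, the targeted gene (GRCm38, chr10:127538161-127621148, minus strand), was measured first. Its 4 WT libraries, in order of replicate number, gave signals of 61.6, 59.0, 56.2 and 85.1. The LRP1 eKO libraries gave 6.01, 2.16, 5.15 and 4.32, with a mean at 6.74% of the WT mean. Values of each gene below are listed in the same order. Signals of 2 libraries stood apart: WT replicate 4 was the library farthest from its group median for 56.9% of genes and LRP1 eKO replicate 2 for 37.6%, against 12.4% to 22.1% for the other 6 libraries. The endothelial markers Pecam1 and Cdh5 were above 0 in every library, with signals of 1.53 to 2.50 and 1.26 to 2.27 in WT, and 1.84 to 3.85 and 2.21 to 4.99 in LRP1 eKO. The summed signal of 10 pan-endothelial markers was 33.0 to 63.2 over the 8 libraries, beside 2315 to 3313 for 7 mesothelial, 1539 to 1950 for 10 smooth muscle and pericyte and 1733 to 2300 for 11 stellate cell and fibroblast markers. Markers of other cell types were thus high and those of ECs low, which goes against the study's description of the cells as ECs. The samples are called WT and LRP1 eKO libraries below. The signal is the deposited quantile-normalized value. Its unit before that step, and whether it is divided by gene length, are not given, so these sums compare across lists only roughly, and single genes are compared between libraries and not with each other.

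To show what lies upstream of the members that the results turn on, the 250 bases before the annotated start of Myog, Myf5 and Mef2c are printed 5′ to 3′ on the strand of the gene, from RefSeq on GRCm38.p6. The Myog window is chr1:134289754-134290003 on the plus strand, the Myf5 window is chr10:107486135-107486384 on the minus strand, and the Mef2c window is chr13:83503784-83504033 on the plus strand, before the first of its 3 listed starts. Capitals mark matches to the E-box CANNTG and to the core of the MEF2 motif, here TA, 4 letters that are each A or T, and TA, searched on both strands.
Myog: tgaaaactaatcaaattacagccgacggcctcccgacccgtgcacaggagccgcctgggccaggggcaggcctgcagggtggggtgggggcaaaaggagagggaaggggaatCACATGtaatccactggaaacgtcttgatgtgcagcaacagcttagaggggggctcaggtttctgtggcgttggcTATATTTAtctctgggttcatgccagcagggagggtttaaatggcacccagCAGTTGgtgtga
Myf5: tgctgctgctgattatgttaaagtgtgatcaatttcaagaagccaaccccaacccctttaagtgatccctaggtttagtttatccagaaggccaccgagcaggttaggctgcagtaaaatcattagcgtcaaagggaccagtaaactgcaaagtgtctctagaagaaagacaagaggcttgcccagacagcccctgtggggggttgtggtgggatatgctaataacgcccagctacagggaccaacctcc
Mef2c: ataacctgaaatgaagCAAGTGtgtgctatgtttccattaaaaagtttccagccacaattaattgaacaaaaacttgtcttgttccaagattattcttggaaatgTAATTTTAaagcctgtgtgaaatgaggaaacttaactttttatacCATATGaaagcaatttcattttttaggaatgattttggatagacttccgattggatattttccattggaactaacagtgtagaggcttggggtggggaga
In the Myog window the E-boxes CACATG and CAGTTG began at -138 and -12 from the RefSeq start, and the MEF2 core TATATTTA began at -63. GENCODE M21 starts Myog at 134289989, inside this window, so CAGTTG lies within the gene as positioned below. The Mef2c window held the E-boxes CAAGTG and CATATG at -234 and -100 and the MEF2 core TAATTTTA at -145, and the Myf5 window held no match to either motif. Of the other 2 Mef2c windows, not printed, 1 held 1 E-box and 1 held none, and neither held the MEF2 core. Of 32851 RefSeq promoter windows of this length, 66.2% held CANNTG and 8.56% held the MEF2 core, so that an E-box match was common. The matches did not overlap each other, and they describe letters and not binding sites.

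Every MyoD family gene was lower in the LRP1 eKO libraries, at 13.3% to 22.5% of the WT mean, and so was the acetylcholine receptor subunit gene Chrnd at 16.7%. Mef2c was lower by less, at 71.1% of WT. Megf10 did not pass the test, and Pax7 and Pax3, the markers of the stem cell stage, were at or near 0 in both groups. A gene was called when its Benjamini-Hochberg adjusted p from limma across all genes fitted was under 0.05. By that rule 6 of the 7 fitted members were called lower and 0 higher, where 20.1% of all genes fitted were called lower and 16.9% higher, 37.0% in either direction. Among the 4412 genes with a mean signal under 3, the range in which all 7 lie, 16.9% were called lower. For 5 of the 7 members every WT library was above every LRP1 eKO library, a separation seen in 21.0% of all genes, and for 0 of the 7 the reverse, seen in 18.1%. Myod1, Myf5, Myf6 and Chrnd had a mean below 0.1 in LRP1 eKO and so passed the filter through their WT libraries. With no filter on the mean, 6 of the 9 members were called lower, against 15.3% of genes. In bulk cells, fewer cells of a type and less RNA per cell cannot be told apart.

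**Figure D1:**
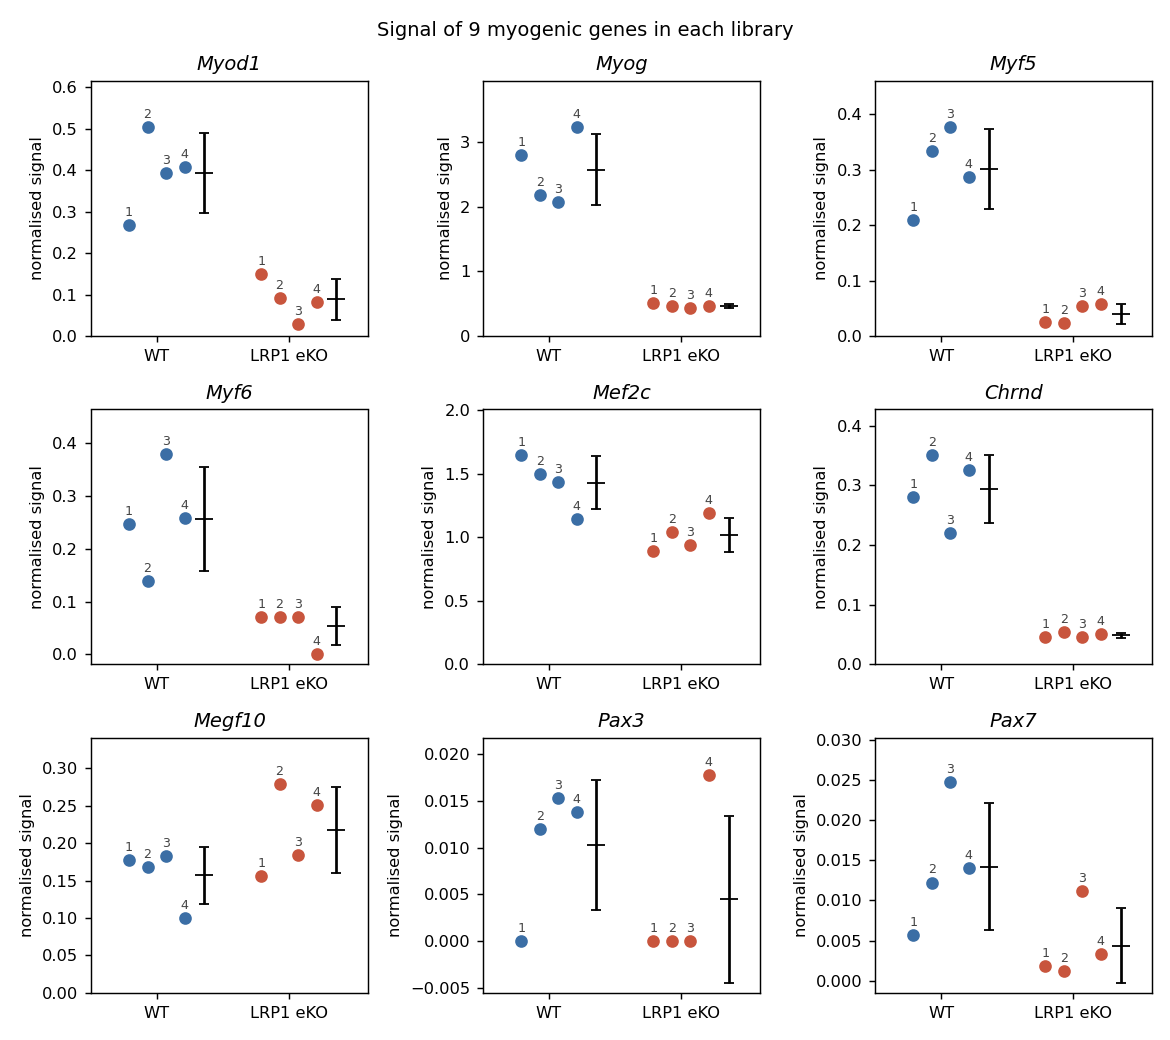
Normalised signal (y axis, a separate linear scale for each gene) of the 9 genes in each library, with the replicate number above each point, and the group mean ± SD beside the 4 points of WT and of LRP1 eKO. The points of Myod1, Myog, Myf5, Myf6 and Chrnd do not overlap between groups, while those of Mef2c, Megf10, Pax3 and Pax7 do.

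Among the factors of commitment, Myod1 (chr7:46376474-46379099, plus strand, 3 exons), which encodes MyoD, had a signal of 0.268, 0.504, 0.393 and 0.408 in the WT libraries and of 0.150, 0.0925, 0.0284 and 0.0828 in the LRP1 eKO libraries. The lowest WT library, replicate 1, was above the highest LRP1 eKO library, also numbered 1. The means were 0.393 ± 0.0971 and 0.0885 ± 0.050 (SD, n = 4 each), a ratio of 4.44 for WT over LRP1 eKO, and the log2 fold change was -0.35 (SE 0.061, adjusted p = 0.0020 from limma). All log2 fold changes are of LRP1 eKO minus WT on log2(signal + 1), which understates the change of genes with a signal below 1, so the percent of the WT mean is given beside them. Myf5, the factor that acts earliest in most muscle precursors (chr10:107482908-107486134, minus strand, 3 exons), had a signal of 0.208, 0.334, 0.377 and 0.287 in WT and of 0.0244, 0.0239, 0.0535 and 0.0584 in LRP1 eKO. No LRP1 eKO library reached the lowest WT value. Its mean of 0.0401 ± 0.0185 in LRP1 eKO was 13.3% of the WT mean of 0.302 ± 0.0721, the lowest share among the 7 fitted members, and the log2 fold change was -0.32 (SE 0.050, adjusted p = 0.0011 from limma).

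Among the factors of differentiation, Myog (chr1:134289989-134292548, plus strand, 3 exons), which encodes myogenin and whose upstream window is printed above, had a signal of 2.80, 2.18, 2.07 and 3.23 in WT and of 0.505, 0.457, 0.426 and 0.462 in LRP1 eKO. The 4 LRP1 eKO libraries lay close together and far below the WT libraries, which spread more widely with replicate 4 as the highest. The means were 2.57 ± 0.546 and 0.462 ± 0.0324 (SD, n = 4 each), so that LRP1 eKO was at 18.0% of WT. The log2 fold change was -1.28 (95% interval -1.497 to -1.05, adjusted p = 1.6e-05 from limma). Myog was the only 1 of the 7 called with a change of at least 2-fold on this scale, which 0.658% of all genes reached in the lower direction and 0.7% in the higher. A gene with a WT mean below 1 cannot fall 2-fold on log2(signal + 1). Myod1, Myf5, Myf6, Chrnd and Megf10 were below that mean and could not have met the rule as lower genes, so nothing is read from this count. Without WT replicate 4 its log2 fold change was -1.19. Myf6, which encodes Mrf4 (chr10:107492853-107494737, minus strand, 3 exons), lies 6718 bases upstream of Myf5 on the same strand. Its signal was 0.246, 0.139, 0.380 and 0.258 in WT, and 0.0711, 0.0715, 0.0715 and 0 in LRP1 eKO. LRP1 eKO replicate 4 was thus listed at 0, and WT replicate 2, the lowest of its group, was still above all of LRP1 eKO. The log2 fold change of Myf6 was -0.25 (SE 0.062, adjusted p = 0.011 from limma), with LRP1 eKO at 20.9% of WT.

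By the exact two-sided permutation test over libraries, Myod1, Myog, Myf5, Myf6 and Chrnd each gave p = 0.0286, the smallest that 4 against 4 libraries allow. Any gene without overlap between the groups gives this value, so it restates the separation above and adds nothing to it. Among all genes fitted, 21.0% had every WT library above and 18.1% every LRP1 eKO library above. None of the exons of the 9 members overlapped an exon of another gene in GENCODE M21, though the annotation behind the deposited table may differ. The summed signal of the MyoD family was 3.16 to 4.18 in the WT libraries and 0.579 to 0.751 in the LRP1 eKO libraries.

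The replicates did not rank alike from gene to gene. The highest WT library was replicate 2 for Myod1 and Chrnd, replicate 3 for Myf5 and Myf6, and replicate 4 for Myog. Relative to the WT mean, the LRP1 eKO libraries lay at 16.6% to 19.6% for Myog and at 15.5% to 18.4% for Chrnd, and more widely at 7.23% to 38.2% for Myod1, at 7.92% to 19.4% for Myf5 and at 0% to 28.0% for Myf6. The depth of the libraries is unknown, the signals of Myod1, Myf5 and Myf6 were all below 1, and the share of counting error in this spread was not tested.

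Mef2c, which encodes a MADS box factor that acts with the MyoD family in muscle and is also active in ECs, neurons and immune cells (chr13:83504034-83667080, plus strand), had a signal of 1.64, 1.496, 1.43 and 1.14 in WT and of 0.894, 1.04, 0.938 and 1.19 in LRP1 eKO. The groups overlapped, since WT replicate 4 was below LRP1 eKO replicate 4, while the other 3 WT libraries were above all of LRP1 eKO. The log2 fold change was -0.27 (95% interval -0.44 to -0.094, adjusted p = 0.023 from limma), and the exact permutation p was 0.0571. The call was lost on leaving out 1 library in 5 cases. Adjusted p from limma was 0.061, 0.056 and 0.0501 without the WT libraries numbered 1, 2 and 3, and 0.064 and 0.063 without the LRP1 eKO libraries numbered 1 and 3. Without WT replicate 4 the log2 fold change was -0.33 (adjusted p = 0.0059 from limma).

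Chrnd encodes the delta subunit of the muscle acetylcholine receptor, a target of the MyoD family (chr1:87190607-87200070, plus strand, 12 exons). Its signal was 0.280, 0.350, 0.2196 and 0.325 in WT and 0.0460, 0.0540, 0.0455 and 0.0508 in LRP1 eKO. The LRP1 eKO values were nearly equal, at a mean of 0.0491 ± 0.00408, and every one was below the WT mean of 0.294 ± 0.0573 and below each WT library (SD, n = 4 each). The log2 fold change was -0.30 (SE 0.045, adjusted p = 9.4e-04 from limma), and the ratio of WT over LRP1 eKO was 5.99.

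Megf10, which encodes a surface receptor of satellite cells that astrocytes also use to engulf debris, had a signal of 0.178, 0.168, 0.182 and 0.101 in WT and of 0.157, 0.279, 0.184 and 0.251 in LRP1 eKO. The groups overlapped, with LRP1 eKO replicate 1 below 3 of the WT libraries. The log2 fold change was 0.07 (95% interval -0.039 to 0.185, adjusted p = 0.28 from limma), an interval that holds 0.

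The paired box genes, the regulators of muscle stem and precursor cells, were at or near 0 in every library. Pax7 (chr4:139737062-139833528, minus strand) had 0.00575, 0.0122, 0.0248 and 0.0140 in WT and 0.00179, 0.00116, 0.0112 and 0.00335 in LRP1 eKO. The groups overlapped through WT replicate 1 and LRP1 eKO replicate 3, and the log2 fold change was -0.014 (95% interval -0.035 to 0.0068, adjusted p = 0.29 from limma with no filter, exact permutation p = 0.0571). The mean of Pax7 was 0.00438 ± 0.00465 in LRP1 eKO and 0.0142 ± 0.00791 in WT (SD, n = 4 each), 30.8% of WT. Pax3 (chr1:78101267-78197134, minus strand), a regulator of embryonic muscle precursors and of the neural crest, was listed at 0 in WT replicate 1 and in LRP1 eKO replicates 1, 2 and 3, and its other values were 0.0121, 0.0153 and 0.0138 in WT and 0.0178 in LRP1 eKO. With no filter the adjusted p of Pax3 was 0.58 from limma, with the LRP1 eKO mean at 43.3% of WT. Neither paired box gene was called.

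**Figure D2:**
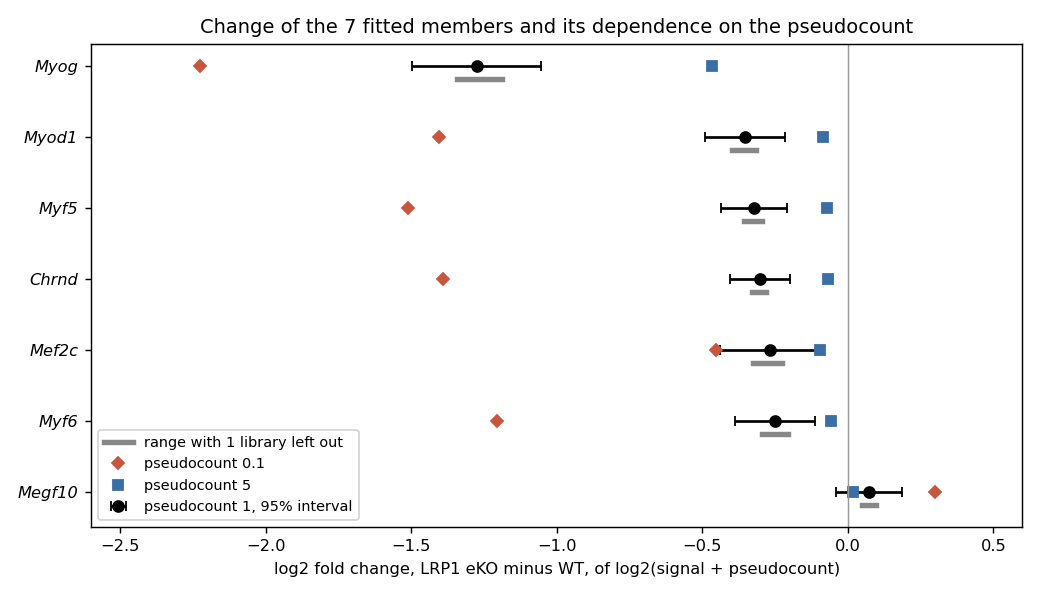
Log2 fold change of LRP1 eKO minus WT (x axis) for the 7 fitted members, with black points and 95% intervals at a pseudocount of 1, grey bars for the range with 1 library left out, and diamonds and squares for pseudocounts of 0.1 and 5. Myog, Myod1, Myf5, Chrnd, Mef2c and Myf6 lie below 0 at each pseudocount and Megf10 above it, while the size of each change depends on the pseudocount.

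Products of differentiated muscle moved in the same direction as the MyoD family. In the list of embryonic and neonatal muscle genes, 8 of 8 were called lower, with a median log2 fold change of -1.20 against -0.0079 over all genes fitted, and in the list of sarcomere and muscle metabolism genes 17 of 17 tested were called lower, with a median of -0.74. None was called higher, and for all 25 tested genes of both lists together every WT library was above every LRP1 eKO library. Over all genes fitted, 20.1% were called lower and 16.9% higher, and 21.0% had every WT library above. The members of the first list with the highest mean signal were Tnnt2, Tnnc1 and Tnni1, which encode troponin subunits, and Tnnt2 fell from 16.7 ± 0.256 to 6.18 ± 1.28 (SD, n = 4 each; log2 fold change -1.32, adjusted p = 2.2e-05 from limma). In the second list they were Actn3, Eno3 and Myl1. Myl1, a myosin light chain of fast fibres, had a signal of 11.5, 11.3, 12.0 and 20.1 in WT and of 1.67, 1.88, 1.89 and 2.14 in LRP1 eKO, with a log2 fold change of -2.31. Actn3, an actinin of fast fibres, was at 53.8% of WT, and Eno3, the muscle enolase, at 68.6%. Of 25 sarcomere and metabolism genes found, 8 were below the filter, among them the creatine kinase gene Ckm, listed at 0 in WT replicate 2 and LRP1 eKO replicate 4, and the giant sarcomere gene Ttn, at 0.0286 to 0.0664 in WT. Both muscle lists were chosen with earlier results of these data known. With no filter, 20 of the 25 sarcomere and metabolism genes were called lower and 0 higher, beside 15.3% lower and 12.0% higher over all 17959 genes of that fit. The 17 tested stood at a median of 19.8% of WT, so those with a low signal could pass the filter through their WT libraries. The counts of 17 called and of genes without overlap are therefore not free of this selection. With a mean signal of at least 1 required, 8 sarcomere and metabolism genes and 6 embryonic and neonatal genes were called lower. The summed signal of this list was 105 in WT replicate 4 and 72.0 to 74.7 in the other WT libraries, against 27.9 to 29.5 in LRP1 eKO. Without WT replicate 4 the same numbers of genes were called, 8 and 17, with medians of -1.07 and -0.66.

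The muscle acetylcholine receptor and neuromuscular junction list held genes called in both directions. Of 10 tested genes 3 fell, 2 rose and 5 were not called, with a median log2 fold change of -0.09, where 20.1% of all genes were called lower and 16.9% higher, and nothing is read from counts this small. The 3 that fell were chosen for naming after their values were seen. Chrna1 and Chrng encode the alpha and gamma subunits that join delta in the fetal receptor, and Rapsn encodes rapsyn, which clusters it. Chrng lies 4586 bases downstream of Chrnd on the same strand, and its signal was 0.330, 0.385, 0.479 and 0.605 in WT and 0.0884, 0.0414, 0.0126 and 0.0957 in LRP1 eKO, which is 13.2% of WT. Every LRP1 eKO value of Chrng was below 0.1, so it passed the filter through its WT libraries. Chrna1 was at 27.3% and Rapsn at 35.5% of WT, each with no overlap between groups. Chrnb1, the beta subunit gene, was at 5.89 ± 0.461 in WT and 6.07 ± 0.407 in LRP1 eKO and was not called (adjusted p = 0.70 from limma). Agrn, which encodes agrin, rose from 20.8 ± 0.340 to 31.3 ± 3.54. Utrn, which encodes utrophin, rose from 5.62 ± 1.25 to 8.26 ± 0.291. Both are also expressed outside muscle, and any link between direction and expression in muscle was not tested. Etv5, also among the 3 highest of the list, was not called (adjusted p = 0.053 from limma).

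Of 10 tested myoblast fusion genes 2 were lower and 1 higher, with a median of -0.09, beside the same shares of all genes. The 2 lower were the fusion proteins specific to muscle, named after their values were seen. Mymk, which encodes myomaker, had a signal of 1.10, 1.21, 0.763 and 1.20 in WT and of 0.230, 0.233, 0.368 and 0.264 in LRP1 eKO (log2 fold change -0.70, adjusted p = 1.8e-04 from limma). Mymx, which encodes myomerger, was at 17.9% of WT (log2 fold change -0.23, adjusted p = 0.028 from limma) and at 0 in LRP1 eKO replicate 4. It passed the filter through its WT libraries, and its call was lost without WT replicate 1 or 4 or without LRP1 eKO replicate 3 or 4, with adjusted p of 0.072, 0.058, 0.060 and 0.074 from limma, and with array weights, at 0.053. Cdh2, which encodes N-cadherin and is not particular to muscle, rose from 98.2 ± 10.7 to 125 ± 10.8, while the surface proteins Neo1 and Kirrel were not called. Any link between direction and expression in muscle was not tested here either.

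Of 12 tested partners of the MyoD family and other myogenic transcription factors, 2 fell and 2 rose, counts close to the shares of all genes, with a median of 0.06. Mef2a and Mef2d, relatives of Mef2c, were at 118% and 108% of WT and were not called, and Vgll3, a cofactor of TEAD factors, rose from 33.9 ± 4.94 to 47.8 ± 4.25. Mef2b, a further relative named after its values were seen, was below the filter. It was at 37.4% of WT with no overlap between groups, and was not called (adjusted p = 0.11 from limma with no filter). Of 17 tested satellite cell and myoblast genes, 2 fell, 6 rose and 9 were not called, with a median of 0.10, beside 20.1% lower and 16.9% higher over all genes. Its highest members were Sdc4, not called, Vcam1, which fell from 207 ± 18.8 to 171 ± 21.2, and Cav1, which rose from 273 ± 54.2 to 454 ± 53.6. The call of Vcam1 was lost with no filter, without the trend, and without any 1 of WT replicates 1, 2 and 3 and LRP1 eKO replicates 2 and 4, with adjusted p of 0.053 to 0.11 from limma. Over single libraries left out, 1 to 3 genes of this list were lower and 4 to 7 higher. Each of these is also made by ECs or other stromal cells. Calcr, which marks quiescent satellite cells, was listed at 0 in all 8 libraries, and Pax7 was at most 0.0248 in any library.

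Regulators that hold the MyoD family in check included the Id proteins, which sequester its E protein partners. Of 13 tested, 5 fell, 2 rose and 6 were not called, beside 20.1% lower and 16.9% higher over all genes. The median log2 fold change of the list was -0.046. Id3 had a signal of 324, 299.9, 280.1 and 293 in WT and of 181, 168, 176 and 166 in LRP1 eKO (log2 fold change -0.79), and Id1 fell from 154 ± 4.98 to 96.2 ± 1.63 (log2 fold change -0.67). The groups of both genes stood well apart. Mdfic, which encodes an inhibitor of MyoD family factors, rose from 30.1 ± 2.14 to 38.3 ± 2.64. Any relation between the inhibitors and the MyoD family was not tested.

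**Figure D3:**
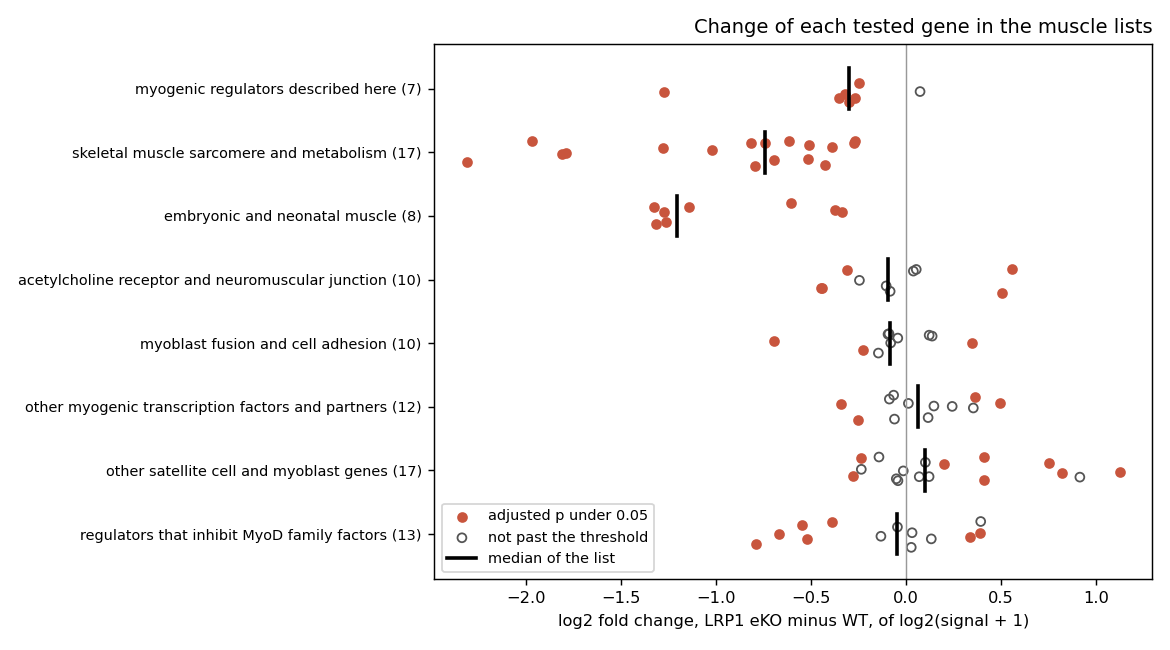
Log2 fold change of LRP1 eKO minus WT on log2(signal + 1) (x axis) of each tested gene in 8 lists (rows, with the number tested), where filled points were called, open points were not, and black bars are list medians. The sarcomere and embryonic muscle lists lie wholly below 0, with medians of -0.74 and -1.20, while the receptor, fusion, partner, satellite cell and inhibitor lists hold genes on both sides.

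Other cell types were read in the same libraries, because signals of some markers of cells other than ECs differed between the groups. Over all genes fitted 20.1% were called lower and 16.9% higher, and nothing is read from counts near these shares. Of 7 tested hepatocyte markers 7 were called lower, with a summed signal over the 8 listed of 1490.2 to 1543 in WT and 614 to 900 in LRP1 eKO, and none at 0 in every library. Their median log2 fold change was -1.47, beside -1.20 and -0.74 for the 2 muscle lists, and they stood at 17.5% to 53.6% of WT with a median of 34.1%. Trf, the transferrin gene, made up most of the sum and was at 52.9% of WT. Of 10 smooth muscle and pericyte markers 5 rose and 1 fell, with sums of 1539 to 1595 and 1866 to 1950, and Acta2 rose from 811 ± 37.3 to 1066 ± 32.1. Of 7 mesothelial markers 2 rose and 0 fell, with sums of 2315 to 2794 and 2992 to 3313. Of 10 pan-endothelial markers 3 rose and 0 fell, with sums of 33.0 to 38.2 and 41.6 to 63.2. Liver sinusoidal endothelial markers gave sums that overlapped, 46.3 to 56.5 and 36.5 to 59.8, with 1 of 8 lower and 1 higher. Of 10 tested hepatic stellate and fibroblast markers 3 were lower and 2 higher. Macrophage sums ranged from 113 to 223 in WT and from 52.8, in replicate 2, to 736 in LRP1 eKO, with 2 of 12 tested markers higher.

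Of 10 cardiac muscle markers, 4 passed the filter, 1 called lower and 1 higher, and the summed signal was 3.68 to 6.06 in WT and 4.93 to 6.11 in LRP1 eKO, so that the groups overlapped. Of its highest members Myl7 and Tnni3 were not called and Nppb rose, while Tnnt2, Tnnc1 and Actc1 of the embryonic muscle list are shared by heart and developing skeletal muscle. Of 7 B cell genes 1, the early factor gene Ebf1, passed the filter and was not called, and Cd79b was at 0 in all libraries. Of 8 melanocyte and neural crest genes 3 passed, 1 of which was higher, and Dct was at 0 in all libraries. Of 4 tested Schwann cell and neuron genes 1 was higher and none was lower. Beside 20.1% lower and 16.9% higher over all genes, nothing is read from counts this small. The part of any of these lists in the change of the myogenic genes was not tested.

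**Figure D4:**
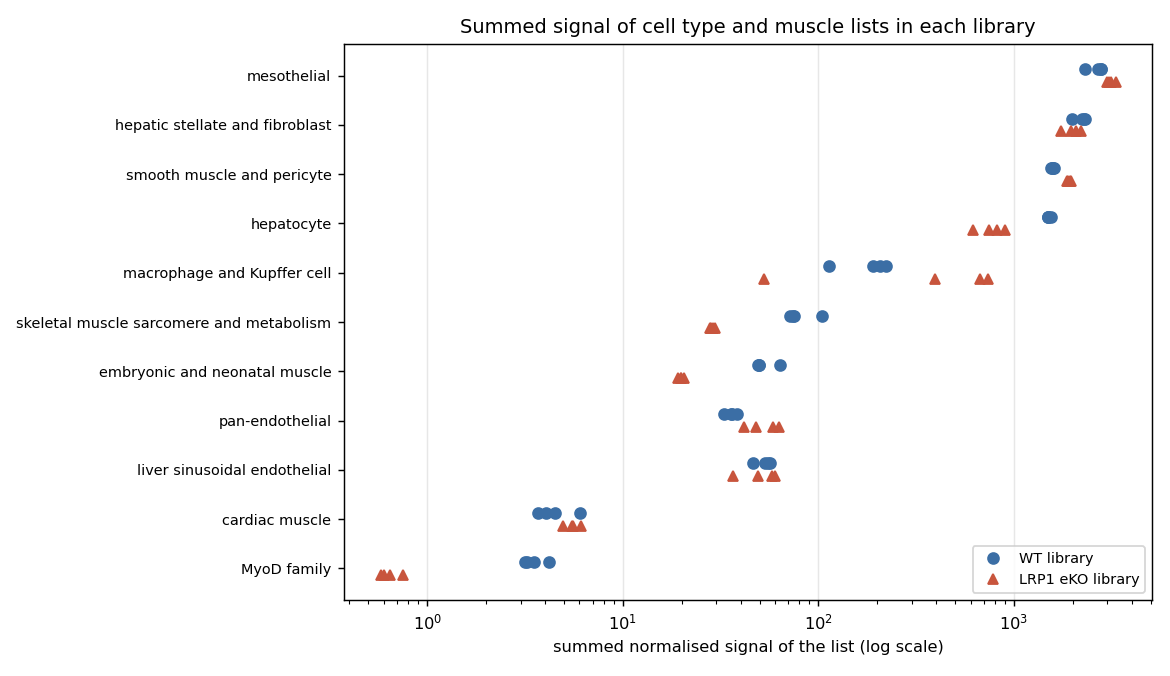
Summed normalised signal (x axis, log scale) of each list in every library, with circles for WT and triangles for LRP1 eKO. The MyoD family, sarcomere and embryonic muscle sums are lower in every LRP1 eKO library, as is the hepatocyte sum, while the smooth muscle, mesothelial and pan-endothelial sums are higher and the cardiac and sinusoidal sums overlap.

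Genes with the most similar pattern over the 8 libraries were found by the root mean square difference between profiles of log2(signal + 1) standardised over libraries, among 11385 genes with a mean signal of at least 1 (11384 for Mef2c, itself among them). For Chrnd they were Tmem109, at 0.115, Prim2, at 0.133, and Cdk2, at 0.136. For Myod1 they were Hspa1b, at 0.223, Hnrnpa0, at 0.241, and Crb2, at 0.245, and for Mef2c they were Usp1, at 0.231, Ubqln2, at 0.246, and Atp1b1, at 0.250. Pax7 was below the filter and was left out of this search. Likeness over 8 libraries in 2 groups takes in the difference between the groups, and nothing is read from it about shared function.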

How the data were processed

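The deposited values are a quantile-normalized signal, 1 column for each of 8 libraries and 1 row for each of 22520 protein-coding genes. The submitters' processing notes name TopHat2, Cufflinks and mm10, while the study's methods name trimGalore, STAR, featureCounts, a GENCODE model and edgeR. Which of them made the table, and the unit before normalization, are not given in the sources used here. Library depth is therefore unknown, and no counting interval was computed. Quantile normalization gives all libraries nearly the same distribution, with sums of 484445 to 485947, so a shift common to most genes is removed. Between 6186 and 6621 genes were at 0 per library. Of 76 ribosomal protein genes, 2 were at 0 in some library.

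Values were tested as log2(signal + 1) by limma 3.58.1 (R 4.3.3) with a mean-variance trend over the 4 WT and 4 LRP1 eKO libraries, for genes with a mean signal of at least 0.1, with Benjamini-Hochberg adjustment. The script was tested on simulated data. The count test of the study's methods was not used because the values are no counts. Single genes were also tested by an exact two-sided permutation test. The members and lists were chosen with earlier results of these data known. Named from each list were its 3 genes with the highest mean signal and others said to be chosen later. In the table Mymk and Mymx carry older symbols and were matched by gene ID or synonym. Positions are from GENCODE M21, which holds 21740 of the gene IDs. Pseudocounts of 0.1 and 5, other filters, limma settings, centring, a replicate block and leaving out libraries were tried.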

Additional observations from a re-analysis of the deposited data

Results flagged for a closer look

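Dixon's test, which compares the gap of the highest or lowest of 4 libraries with the range of the group, passed its 95% level in 7 of 54 groups examined, where chance gives about 1 in 20, or 2.7. 2 of the 7 were single genes of LRP1 eKO. Myf6 in LRP1 eKO replicate 4 was listed at 0 against 0.0711 to 0.0715 in the other 3 (ratio 0.995), and Pax3 in the same replicate was 0.0178 against 0 in the other 3 (ratio 1.0). With the other 3 at 0, any value above 0 gives a ratio of 1.0, so nothing is read from the flag of Pax3. The other 3 values of Myf6 were nearly equal, so a value well apart from them gives a ratio near 1.0. Nothing is read from the flag of Myf6 either.

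The other 5 were sums of lists in which WT replicate 4 stood alone, so these flags are not independent of each other. WT replicate 4 was the library farthest from its group median for 56.9% of genes. It was the highest for embryonic and neonatal muscle, at 63.9 against 49.3 to 49.6 (ratio 0.984), and for sarcomere and metabolism genes, at 105 against 72.0 to 74.7 (ratio 0.917). It was also the highest for melanocyte and neural crest genes, at 3.93 against 2.18 to 2.27 (ratio 0.951), with Mlana at 2.14 against 0.606 to 0.773, and for hepatocyte genes, at 1543 against 1490.2 to 1496 (ratio 0.885). It was the lowest for fusion and adhesion genes, at 180.4 against 214 to 215 (ratio 0.973). The hepatocyte sum rests on Trf, since Alb in WT replicate 4 was the lowest of the group, at 15.7 against 20.6 to 24.7.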

How the results depend on the processing

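Myod1, Myog, Myf5, Myf6 and Chrnd kept their direction and their call under each alternative in which they were fitted, with adjusted p from limma of at most 0.0097, 2.2e-04, 0.0056, 0.036 and 0.0062. Their log2 fold changes depend on the pseudocount by construction, from -0.084 at 5 to -1.41 at 0.1 for Myod1 and from -0.47 to -2.23 for Myog. Requiring a signal of at least 1 in 4 libraries, or a mean of at least 1, removed all fitted members but Myog and Mef2c, and 2 and 2 were called lower. These filters left 1 and 1 lower genes in the receptor list, whose median turned to 0.038 under both, and 9 and 8 in the sarcomere list. Array weights gave 5 lower receptor genes, and the cause was not tested. At 2-fold, 92 genes were lower and 98 higher, and 1 member was lower, a fall that only Myog and Mef2c could have reached on this scale. Leaving out 1 library at a time gave 2214 to 2834 genes lower, 1827 to 2326 higher, 5 to 6 members lower and 0 higher, 3 to 4 receptor genes lower, 8 embryonic and 17 sarcomere genes lower. Fusion genes lower were 1 without WT replicate 1, LRP1 eKO replicate 3 or LRP1 eKO replicate 4, and 0 and 0 under the filters at 1. With WT replicate 4 and LRP1 eKO replicate 2 both left out, 6 members were lower.

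Samples share only a replicate number: deviations of same-numbered libraries correlated at -0.068, -0.11, 0.17 and 0.028, and 0 of 4 WT libraries correlated best with its own number. With the replicate block, 2399 genes were lower and 2080 higher, and 5 members were lower, Mef2c being lost (adjusted p = 0.063 from limma). Depth is unknown, and the members' signals were low.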

Other observations

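Several weakly detected genes of muscle and liver, chosen after their values were seen, differed between the groups. Vgll2, a cofactor gene of skeletal muscle, had a signal of 0.0211, 0.0242, 0.0665 and 0.0495 in WT and was listed at 0 in all 4 LRP1 eKO libraries (adjusted p = 0.025 from limma with no filter). Ryr1, the calcium release channel of skeletal muscle, was below the filter and was at 0.0909 to 0.121 in WT and 0.0187 to 0.0338 in LRP1 eKO (adjusted p = 5.2e-04 from limma with no filter). Sln came from the cardiac muscle list, in which it was the 1 of 4 tested genes called lower, while Nppb rose. It encodes a small regulator of the muscle calcium pump. The signal of Sln was 0.639, 0.605, 0.275 and 1.53 in WT and 0, 0.0760, 0.150 and 0.255 in LRP1 eKO (adjusted p = 0.023 from limma, and 0.061 without LRP1 eKO replicate 1). Clec4f, a marker of Kupffer cells, showed the opposite pattern, at 0 in all 4 WT libraries and at 0.826, 0.124, 0.537 and 0.427 in LRP1 eKO (adjusted p = 0.0074 from limma). It passed the filter through its LRP1 eKO libraries.

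Contractile genes of smooth muscle did not share 1 direction. Mylk, which encodes myosin light chain kinase, was at 19.8 to 21.3 in WT and at 9.66 to 10.1 in LRP1 eKO (log2 fold change -0.99), while Myh11, the smooth muscle myosin heavy chain gene, was at 0.437 to 0.621 in WT and 1.46 to 1.68 in LRP1 eKO (log2 fold change 0.72). Both were named after their values were seen.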
